A study of Arabidopsis thaliana with 4 samples.

Results

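Pectin methylesterase inhibitor-type proteins are small secreted proteins of plants that share a fold with the inhibitors of invertase. Pectin is deposited in the wall with its galacturonic acid residues methyl-esterified. Pectin methylesterases remove these groups in the wall, which lets calcium cross-link the chains or opens them to polygalacturonases and pectate lyases. An inhibitor binds an esterase and blocks its active site, while the related invertase inhibitors act on enzymes that split sucrose. In roots, the degree of pectin esterification is known to matter for cell growth and cell adhesion.

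The genes described here were 10 loci of Arabidopsis thaliana, namely AT5G62340 and 9 others of the inhibitor type. AT5G62340 was selected on its signal, which was much higher in the sol2 mutant than in wild type on these arrays. Its own values are therefore given as a description, and its call in the fit over all probe sets is not read as a result. The others were taken for their family, with earlier results of these data already known. A probe set paired with that 1 gene alone was found for 9 of the 10, out of 13350 genes with such a probe set on the array. AT4G12390, listed as pectin methylesterase inhibitor 1, had none and was left out. AT1G62760 had 2 probe sets and the other 8 genes had 1 each, which gave 10 probe sets.

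Expression was measured in root tips of seedlings grown for 4 days on MS medium at 23 °C in continuous light, on 2 arrays of the sol2 mutant and 2 arrays of wild type, with biotin-labelled cRNA made from total RNA. SOL2, also called CORYNE, is a receptor-like kinase that takes part in CLE peptide signalling, and the comparison asks which genes of the root apex change when it is mutated. The labels give no allele, no background accession and no number of pooled seedlings, and the tables name no probe set for SOL2. They do not say whether replicates came from separate cultures, so p-values cover only the spread among the 4 arrays, part of which may be technical.

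Each value is a linear signal intensity of a probe set, scaled by the authors to a common level. The highest signal of 27 control probe sets for bacterial transcripts was 34.1, and signals at or under it are treated as within background. Replicate arrays differed by a median of 0.182 (absolute log2 difference) in sol2 and 0.294 in wild type. The second wild type array was nearer to both sol2 arrays (0.220 and 0.189) than to the first wild type array. The 3' to 5' signal ratio of ubiquitin, a sign of RNA quality, was 2.46 and 2.29 in sol2, against 3.02 and 3.87 in wild type. That of actin differed more between replicates, at 11.6 and 36.9 in sol2, against 8.45 and 24.5 in wild type, and overlapped between genotypes, while that of GAPDH was between 0.971 and 1.07 on all arrays. As a check of the tissue, AT1G65570, the 1 of 4 listed root cap markers with a probe set, was above the control range on every array. So were the 3 root hair markers with a probe set (of 7 listed), while none of the 5 meristem markers had a named probe set. RCA, the 1 of 6 listed green tissue markers with a probe set, was above the control range as well. It was 183.7 and 147.8 in sol2, against 296.5 and 251.3 in wild type.

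AT5G62340 had far more signal in sol2 root tips. It was 4802.4 and 4290.8 on the sol2 arrays, against 478.1 and 398.3 on the wild type arrays. The genotypes did not overlap, and replicates lay close together, with the higher array 1.12 times the lower in sol2 and 1.20 times in wild type. The mean was 4547 ± 362 in sol2 and 438 ± 56.4 in wild type (SD, n = 2 each), a 10.4-fold higher signal in sol2. Setting each sol2 array against each wild type array, the 4 ratios ran between 8.97 and 12.1. On the scale log2(signal + 18.4), where 18.4 is the 20th percentile of all values, the difference of sol2 minus wild type was 3.32 ± 0.19 (SE). In a bulk sample, more cells that express the gene and more RNA per cell cannot be told apart.

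AT5G62340 stands in a group of 3 inhibitor-type genes on chromosome 5, with AT5G62350 and AT5G62360 as the next protein-coding genes in the RefSeq gene order. AT5G62350 was 1173.3 and 1570.5 in sol2, against 1560.8 and 1443.2 in wild type. Both genotypes were well above background there and overlapped, and the sol2 arrays enclosed both wild type values. The means were 1372 ± 281 in sol2 and 1502 ± 83.2 in wild type, with a log2 difference of -0.14 ± 0.20 (SE, adjusted p = 0.955, limma) and a 95% interval between -0.61 and 0.33. A change as large as that of AT5G62340 lies outside this interval.

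AT5G62360 was 4.3 and 3.9 in sol2, against 2.3 and 2.4 in wild type. The sol2 arrays were above the wild type arrays, but all 4 values lay within the control range, so that no fold is given and the gene was not detectable above background in either genotype. Its probe set was below the filter of the test. The 10-fold higher signal of AT5G62340 was thus not matched by the probe set of AT5G62350. For AT5G62360 a match could not be judged, since its signal was within background in both genotypes. Gene and probe sequences were not used here, so whether the probe sets distinguish the copies fully was not tested.

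**Figure D1:**
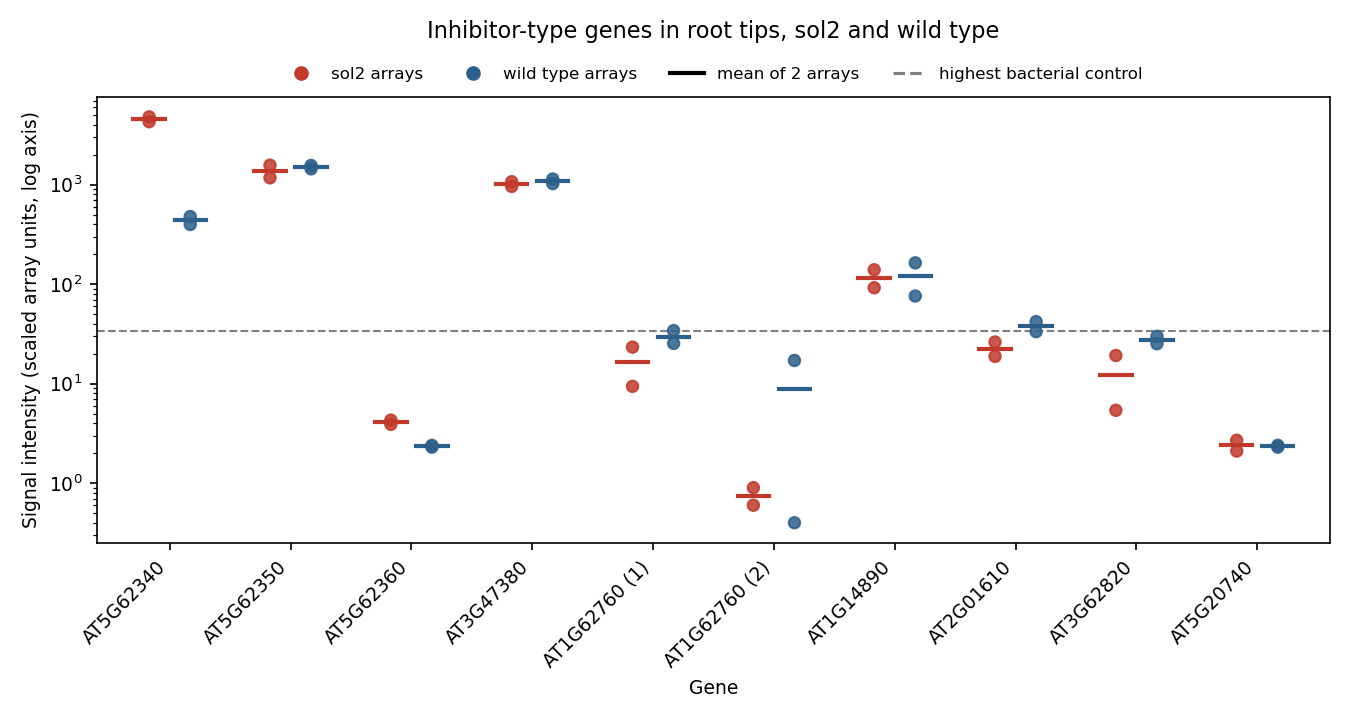
Signal intensity (scaled array units, log axis) of the 10 probe sets of inhibitor-type genes, with 1 point per array, the sol2 arrays left and the wild type arrays right at each gene, a short line at the mean of 2 arrays, and the 2 probe sets of AT1G62760 numbered. AT5G62340 is the gene with sol2 arrays far above wild type arrays (4802.4 and 4290.8, against 478.1 and 398.3), and 5 of the 10 probe sets have both genotype means under the dashed line at 34.1, the highest bacterial control.

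On the other side of AT5G62340, the adjoining gene AT5G62330 had a higher signal in sol2, a call that did not hold under several settings. Its signal was 205.8 and 195.6 in sol2, against 72.4 and 48.0 in wild type. Both sol2 arrays exceeded both wild type arrays, all 4 values were above the control range, and the mean was 3.33-fold higher in sol2. The log2 difference was 1.50 ± 0.26 (SE, adjusted p = 0.0427, limma), close to the threshold of 0.05. Both wild type signals were under the level of the filter on low values, which corresponds to a mean signal of 80.1, so the gene entered the test only through its sol2 arrays. The call ended with quantile normalization (adjusted p = 0.0619, limma), with equal array medians (0.0563), without the filter (0.163) and without sol2 replicate 1 (0.0985) or sol2 replicate 2 (0.0716). The tables give this gene no name, and its place in the inhibitor family was not analysed here.

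Of the 5 annotated genes on each side of the 3 copies, 3 had a probe set of their own. AT5G62290 was 926.8 and 1063.3 in sol2, against 1051.1 and 1297.2 in wild type, and its genotypes overlapped (log2 difference -0.23 ± 0.20, SE, adjusted p = 0.908, limma). AT5G62400 lay within the control range on every array, at 5.3 and 4.7 in sol2, against 5.0 and 7.9 in wild type. The other 7, among them the root hair elongation gene IRE and the vascular NAC gene NAC101 (also called VND6), had no single-gene probe set. The genes AT5G62290, AT5G62350, AT5G62360 and AT5G62400 around AT5G62330 and AT5G62340 did not pass the test or lay within background.

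**Figure D2:**
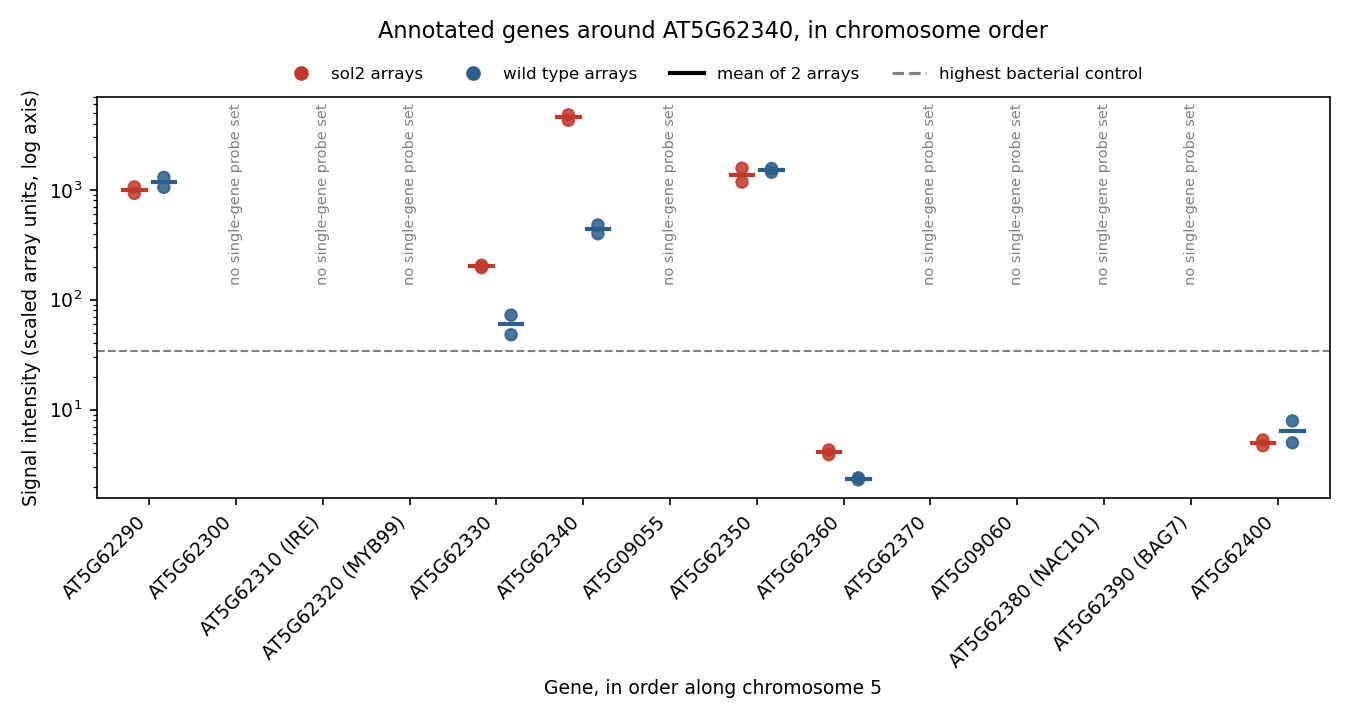
Signal intensity (scaled array units, log axis) of 14 annotated genes in their order along chromosome 5, with the sol2 arrays left and the wild type arrays right at each gene, a line at the mean of 2 arrays, and grey text where a gene has no probe set of its own. AT5G62330 and AT5G62340 show sol2 arrays above wild type arrays and above the control range, while AT5G62290 and AT5G62350 overlap.

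Of the other inhibitor-type genes, AT3G47380, known as PMEI11 and described in the response to fungal infection, differed little between arrays. It had signals of 1071.0 and 960.0 in sol2, against 1024.9 and 1139.2 in wild type. The genotypes overlapped and both were well above background. The log2 difference was -0.09 ± 0.19 (SE, adjusted p = 0.973, limma), with a 95% interval between -0.52 and 0.34.

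AT1G14890 differed more between replicates than between genotypes. In the order of replicate 1 and replicate 2, it was 139.5 and 92.0 in sol2, against 163.8 and 76.0 in wild type. Replicate 1 was the brighter array in both genotypes, and the wild type arrays enclosed the sol2 values. With a log2 difference of 0.01 ± 0.36 (SE, adjusted p = 0.998, limma) and a 95% interval between -0.82 and 0.84, a moderate change in either direction could not be detected at this spread.

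The remaining genes had little or no signal above background in root tips. AT5G20740, known as PMEI3 and studied for its effect on organ initiation at the shoot apex, was 2.7 and 2.1 in sol2, against 2.4 and 2.3 in wild type. AT1G62760, known as PMEI10 and like PMEI11 described in the response to fungal infection, gave 23.3 and 9.4 in sol2 with its first probe set, against 34.1 and 25.4 in wild type. Its second probe set gave 0.6 and 0.9 in sol2, against 17.1 and 0.4 in wild type. No array of either probe set exceeded the highest control, so the 2 probe sets neither show a level nor an order.

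AT3G62820 was 19.2 and 5.4 in sol2, against 29.9 and 25.2 in wild type, and lay within the control range on every array too. AT2G01610 was 26.2 and 18.8 in sol2, against 42.0 and 33.3 in wild type. Only wild type replicate 1 exceeded the highest control, so no fold is given and a lower signal in sol2 would rest on that 1 array. Neither gene was called in the fit without a filter (adjusted p = 0.650 for AT3G62820 and 0.737 for AT2G01610, limma).

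In all, 4 of the 10 probe sets passed the filter on low values (mean log2 value at or above the 40th percentile), and 6 did not. Of the 4, AT5G62340 was called higher at an adjusted p under 0.05 and none was called lower, while of all 13648 tested probe sets 0.945% were called higher and 0.3% lower. Since AT5G62340 was chosen for this difference, nothing is read from that count. AT5G62350, AT3G47380 and AT1G14890 had no unadjusted p under 0.05 (limma), and no setting tried called any of them. Both sol2 arrays were above both wild type arrays for 2 of the 10 probe sets and below them for 3, against 17.1% and 19.2% of all 22746 probe sets without a filter, and 5 overlapped. Of the 5 that did not overlap, 3 lay within the control range on every array, and their order is not read.

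The patterns most like that of AT5G62340 over the 4 arrays, by Euclidean distance of log2(signal + 18.4) values centred on each gene's mean, were found among 7403 other tested probe sets with 1 gene. The nearest was AT1G60750, an aldo/keto reductase, at a distance of 0.348, with 680.5 and 656.8 in sol2, against 57.1 and 64.2 in wild type. AT1G62510, a lipid-transfer-type protein, followed at 0.404, and AT1G62480 at 0.542. The wild type signals of AT1G62510 were 42.6 and 19.9, with a mean within the control range. For both AT1G60750 and AT1G62510 the wild type signals were under the filter level of 80.1. These 2 genes thus entered the test only through their sol2 arrays. The median distance over the 7403 was 3.35. The other inhibitor-type probe sets, tested or not, lay between 3.21 (AT5G62360) and 3.96 (AT3G62820), both within the control range. The 3 nearest genes were all higher in sol2. The likeness was measured over the same arrays as the difference that chose AT5G62340, so it is given as a description.

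Other genes of pectin metabolism were taken from 7 lists of 168 genes. Of these 88 had a probe set of their own and 43 passed the filter. None was called higher or lower (limma), where 1.25% of all tested probe sets were called. At an unadjusted p under 0.05 there were 1 higher and 4 lower, or 11.6% of the 43, against 8.9% of all tested probe sets. Both sol2 arrays were below both wild type arrays for 16 (37.2%) and above them for 5 (11.6%), where the shares over all tested probe sets were 18.6% and 17.5%. Their median log2 difference was -0.11, against 0.004 for all tested probe sets. Of all 89 probe sets of the lists, filtered or not, 23 had both sol2 arrays below, 12 had them above and 54 overlapped. The shares over all 22746 probe sets without a filter were 19.2% below and 17.1% above. Of the 89, 37 had both genotype means within the control range.

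**Figure D3:**
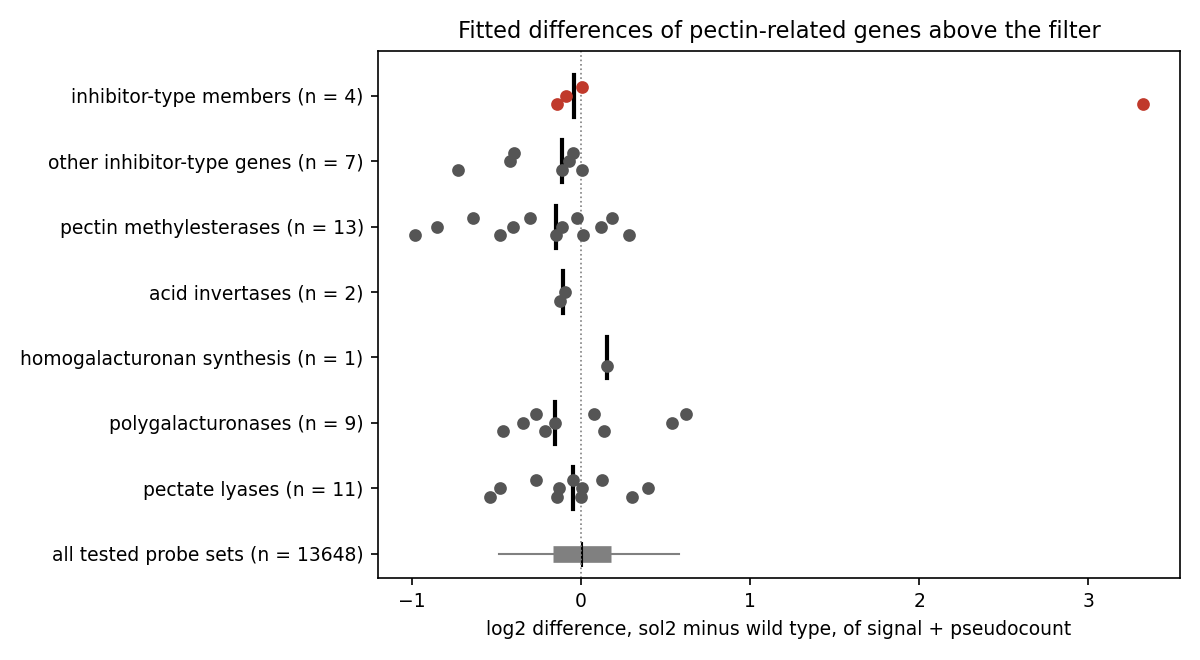
Fitted log2 difference of signal + pseudocount, sol2 minus wild type, for each gene above the filter (points), by list, with a black line at the median of the list. In the lowest row the thick bar spans the quartiles of all 13648 tested probe sets and the thin line the 5th to 95th percentile. AT5G62340 lies at 3.32, while the other genes shown lie between -0.98 and 0.62.

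Among further inhibitor-type genes, 23 of 53 had a probe set and 7 passed the filter. None of the 7 was called, where 1.25% of all tested probe sets were. Fitted differences were below 0 for 6 of the 7, and the median was -0.11. Of all 13648 tested probe sets, 6731 were below 0, and the median was 0.004. Of the 23 probe sets, filtered or not, 4 had both sol2 arrays above, 4 had them below and 15 overlapped. The shares over all probe sets without a filter were 17.1% above and 19.2% below. Both genotype means lay within the control range for 13 of the 23. The largest difference of the 7 was that of AT3G17130, with 198.1 and 179.1 in sol2, against 393.1 and 266.2 in wild type. Its genotypes did not overlap (log2 difference -0.73 ± 0.25, SE, adjusted p = 0.369, limma). AT1G62770 was 180.9 and 122.3 in sol2, against 262.4 and 159.3 in wild type, with overlap (log2 difference -0.42 ± 0.30, SE, adjusted p = 0.855, limma). Neither invertase inhibitor on the lists had a probe set of its own.

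Of the pectin methylesterases, the enzymes that inhibitors of this type act on, 19 of 35 had a probe set and 13 passed the filter. None was called. Both sol2 arrays were below both wild type arrays for 5 of the 13 (38.5%) and above them for 1 (7.69%), where the shares over all tested probe sets were 18.6% and 17.5%, and the median log2 difference was -0.15. The gene with sol2 above, AT5G64640, had a wild type mean of 77.6, under the filter level of 80.1. Its sol2 arrays (89.7 and 107.6) carried it over the filter. AT2G47550 had 280.7 and 215.2 in sol2, against 541.1 and 468.3 in wild type. That is a signal 0.491 times the wild type mean, with a log2 difference of -0.98 ± 0.23 (SE, adjusted p = 0.120, limma). The genotypes did not overlap, and the difference did not pass the test over all probe sets.

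AT5G53370, listed as PMEPCRF, had 746.4 and 654.4 in sol2, against 1641.9 and 991.4 in wild type. The wild type arrays differed 1.66-fold from each other, and the log2 difference was -0.85 ± 0.26 (SE, adjusted p = 0.269, limma). AT5G04960, named here for its unadjusted p of 0.0113 after its values were seen, had 1211.3 and 1093.7 in sol2, against 2024.3 and 1603.2 in wild type (log2 difference -0.64 ± 0.19, SE, adjusted p = 0.268, limma). In these 3 genes wild type replicate 1 was the brightest array. Without wild type replicate 2, the log2 differences were -1.08 for AT2G47550, -1.21 for AT5G53370 and -0.80 for AT5G04960. They were -0.99 for the inhibitor-type AT3G17130 and 1.03 for the root cap polygalacturonase AT1G65570. Without wild type replicate 1 they were, in the same order, -0.88, -0.49, -0.47, -0.46 and 0.22. In both fits the spread comes from the sol2 arrays alone, so calls in them are not read.

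Markers of other cell types were read beside these genes, and none passed the test (limma). The root hair marker EXPA18, an expansin, was 1407.6 and 1265.3 in sol2, against 1699.8 and 1762.0 in wild type (adjusted p = 0.624, limma), while EXPA7 and the peroxidase AT5G17820 overlapped. The summed signal of the 3 measured root hair markers was 11645 and 9748 in sol2, against 12887 and 9169 in wild type. The signal of RCA was lower on both sol2 arrays (adjusted p = 0.372, limma), and that of the root cap gene AT1G65570 higher (adjusted p = 0.599, limma). The ubiquitin 3' to 5' ratio was lower on both sol2 arrays, while the actin and GAPDH ratios overlapped between genotypes. Their part in the differences of the pectin genes was not tested.

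**Figure D4:**
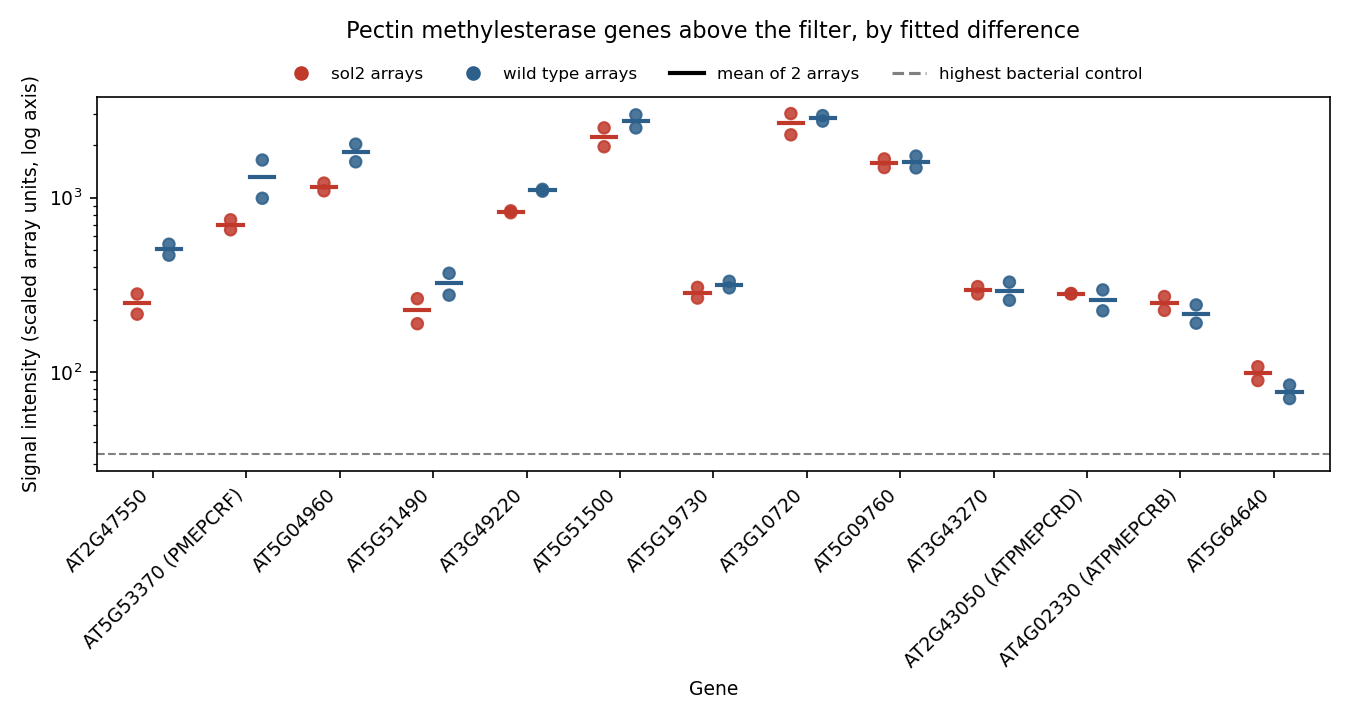
Signal intensity (scaled array units, log axis) of the 13 pectin methylesterase genes above the filter, ordered by fitted difference, with the sol2 arrays left and the wild type arrays right at each gene and a line at the mean of 2 arrays. AT2G47550, at the left, has both sol2 arrays (280.7 and 215.2) below both wild type arrays (541.1 and 468.3), and AT5G64640, at the right, has them above.

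Among enzymes that cut de-esterified pectin, none of 9 tested polygalacturonases and 11 tested pectate lyases was called, where 1.25% of all tested probe sets were. AT1G65570, a polygalacturonase known from the root cap, had 575.5 and 631.3 in sol2, against 285.6 and 515.8 in wild type (log2 difference 0.62 ± 0.29, SE, adjusted p = 0.599, limma). AT1G10640, another polygalacturonase, had 140.5 and 93.3 in sol2, against 79.4 and 67.7 in wild type (adjusted p = 0.694, and 0.741 without the filter, limma). Its wild type signals were both under the filter level of 80.1, so it entered the test only through its sol2 arrays. AT1G65570 and AT1G10640 had sol2 arrays above wild type arrays, or 22.2% of the 9, and 5 (55.6%) had them below. The shares over all tested probe sets were 17.5% and 18.6%. Leaving out the first wild type array gave AT1G65570 a log2 difference of 0.22, and leaving out the second gave 1.03.

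For the pectate lyases, AT4G13210 had 82.9 and 100.4 in sol2, against 117.1 and 168.8 in wild type (log2 difference -0.54 ± 0.27, SE, adjusted p = 0.676, limma). AT1G67750 had 687.7 and 586.5 in sol2, against 998.2 and 794.3 in wild type (log2 difference -0.48 ± 0.21, SE, adjusted p = 0.578, limma). The genotypes of both did not overlap, with sol2 below. Of the 11 tested, 4 (36.4%) had both sol2 arrays below and 1 (9.09%) had them above. The shares over all tested probe sets were 18.6% and 17.5%. AT4G24780, named after its values were seen for an unadjusted p of 0.0460 (limma), went the other way. It had 2288.9 and 2288.5 in sol2, against 1650.9 and 1825.9 in wild type (adjusted p = 0.537, limma).

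For the synthesis of homogalacturonan, the pectin backbone, 2 of 19 listed genes had a probe set of their own, and only AT3G49720 passed the filter. This gene, known as CGR2, serves the methyl-esterification of pectin in the Golgi. It had 3891.3 and 4188.5 in sol2, against 3672.1 and 3572.2 in wild type (log2 difference 0.16 ± 0.15, SE, adjusted p = 0.919, limma). Of the acid invertases, which the related inhibitors act on, 2 of 8 listed had a probe set of their own. AT1G62660 of the vacuole had 7882.3 and 6730.3 in sol2, against 8893.7 and 7075.5 in wild type. The gene cwINV6, whose product is a fructan exohydrolase, had 84.1 and 108.5 in sol2, against 101.2 and 105.1 in wild type. Both overlapped between genotypes, with adjusted p of 0.949 and 0.981 (limma).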

How the data were processed

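Total RNA of root tips was labelled and hybridised to 4 arrays. The authors deposited 1 linear intensity value per probe set and array. The submitters' processing notes name GCOS; the sources used here do not give its algorithm or target. The mean of the middle 96% of values was 500.05 or 500.06 on each array, so the values were used as scaled, without detection calls.

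Of 22810 probe sets, 64 controls were left out. Among the others 13513 were paired with 1 gene by the platform annotation, 503 with several and 8730 with none, and 13508 of the first kind were matched to a locus of the RefSeq gene table (TAIR10.1), which served for names and gene order. Signals were taken as log2(signal + 18.4), which understates the change of low genes, and 13648 probe sets whose mean reached the 40th percentile were tested with limma 3.58.1 in R 4.3.3 (lmFit, eBayes with trend, two-sided, genotype as the only term). P-values were adjusted by Benjamini-Hochberg over these, with calls at an adjusted p under 0.05. Figures and tables were made with Python 3.11.15 and matplotlib 3.10.9. Simulated data served to test the fit.

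The members and gene lists were chosen with earlier results of these data known. Named were all members, the called or else the 2 most different tested genes of each list, 5 genes on each side of the 3 copies, and the 3 patterns nearest to AT5G62340. The number of arrays limits the precision. Alternatives covered normalization, pseudocount, filter, prior variance, replicate block, threshold and omission of each array.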

Additional observations from a re-analysis of the deposited data

How the results depend on the processing

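The log2 difference of AT5G62340, given as a description, lay between 3.16 and 3.45 over 13 alternatives, and none of them called another of the 9 genes with a probe set described first. No result changed direction while called. The pectin lists, with no call in the reported fit, gave 5 calls with a replicate block (AT2G47550, AT5G53370, AT5G04960 and AT3G17130 lower, or 4, and 1 higher, AT1G65570). Over arrays left out in turn they gave 0 to 5, with 0 to 4 lower and 0 to 1 higher. The number of all probe sets called, 129 higher and 41 lower, was 60 and 9 without a filter, 68 and 15 with a 60th-percentile filter, 660 and 462 with the replicate block, 199 and 78 at an adjusted p under 0.10, and 92 to 872 higher and 49 to 529 lower over arrays left out, most without wild type replicate 2. Where 1 array of a genotype was left, the spread came from the other genotype alone. The labels do not pair samples by replicate number; across probe sets, the replicate differences of sol2 and of wild type had a correlation of 0.441, over only 2 pairs. The stricter filter and the lack of one change how many probe sets are tested; the cause of the other moves was not tested. Signals within the control range limit 5 of the 10 member probe sets.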
